A study of Mus musculus with 12 samples.

Results

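The enzymes and regulators of fatty acid synthesis were followed in mouse adipose tissue by single-nucleus RNA sequencing. The group was given as a list of symbols, Acly, Acaca, Acacb, Fasn, Acss2, Me1, Srebf1, Mlxipl, Scd1 and Scd2, and each symbol matched 1 of the 32285 genes in the count matrices, so all 10 members were measured. The study collected 12 libraries, 1 in each of 12 groups, from C57BL/6J males fed normal chow. The labels name the depots iBAT, iWAT, mPRAT and lPRAT without spelling them out. By common use iBAT is brown fat from between the shoulder blades, iWAT is white fat of the groin, and mPRAT and lPRAT are the inner and outer fat around the kidney. At 22 °C there were libraries of mPRAT and iBAT at 1, 2 and 6 months, of lPRAT at 2 and 6 months and of iWAT at 6 months, and at 4 °C for 3 days there were libraries of mPRAT, iBAT and iWAT at 6 months. The 6-month titles go with an age of 16 weeks in the characteristics, and the other ages are given there as 4 and 8 weeks. How many mice stand behind a library is not stated, so a difference between libraries can also be one between mice or dissections.

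Fatty acid synthesis turns carbon from glucose into palmitate. ATP citrate lyase (Acly) and acyl-CoA synthetase short-chain family member 2 (Acss2) make cytosolic acetyl-CoA, from citrate and from acetate. Acetyl-CoA carboxylase alpha (Acaca) makes malonyl-CoA for synthesis, its mitochondrial relative Acacb makes malonyl-CoA that restrains fatty acid oxidation, and fatty acid synthase (Fasn) builds the chain with NADPH that malic enzyme (Me1) can supply. The stearoyl-CoA desaturases Scd1 and Scd2 put a double bond into the product. Srebf1 encodes the sterol-regulated factor SREBP-1, and Mlxipl the carbohydrate-responsive factor ChREBP, both transcription factors of these enzymes. Brown fat burns fatty acids for heat and is known to raise their synthesis as well in the cold.

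On GRCm38 in the GENCODE M21 annotation, Acly (chromosome 11, 100476353 to 100528000), Acaca (chromosome 11, 84129672 to 84401651), Fasn (chromosome 11, 120805846 to 120824547) and Srebf1 (chromosome 11, 60199089 to 60222581) share a chromosome. Acacb (114146535 to 114250761) and Mlxipl (135089890 to 135138382) are on chromosome 5. Acss2 is on chromosome 2 (155517948 to 155585724) and Me1 on chromosome 9 (86581371 to 86695953). Scd2 (44293674 to 44306864) and Scd1 (44394455 to 44407879) are neighbours on chromosome 19. The desaturases are close copies, so reads could be split between Scd1 and Scd2, and how such reads were counted is not given in the sources used here.

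Since many members moved together, their promoters were searched in RefSeq windows (GRCm38.p6) of 250 bases before to 50 after a gene start. Of the 10 members 8 had a window, 12 windows in all. The motif CCAAT, searched on both strands, was in 8 of the 12 windows and in 37.4% of all 32851 windows. The GC box GGGCGG was in 6 of the 12 and in 35.7% of all. The E-box CACGTG, the core letters of sites of the factor USF, was in 1 of the 12, that of Mlxipl itself, and in 7.15% of all. The sterol element TCACNCCA, letters of a known type of SREBP site, was in 1 of the 12, another window of Mlxipl that is not printed here, and in 4.36% of all. The upstream 150 bases of the Fasn gene, whose highest level was 57.5 times its lowest, and of Mlxipl are shown, with CCAAT or its reverse complement and the E-box in capitals. A match of letters is not a binding site.
Fasn promoter, chr11:120824548-120824697, minus strand: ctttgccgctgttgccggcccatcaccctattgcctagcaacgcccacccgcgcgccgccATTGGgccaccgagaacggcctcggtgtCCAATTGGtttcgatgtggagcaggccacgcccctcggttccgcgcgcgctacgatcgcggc
Mlxipl promoter, chr5:135089740-135089889, plus strand: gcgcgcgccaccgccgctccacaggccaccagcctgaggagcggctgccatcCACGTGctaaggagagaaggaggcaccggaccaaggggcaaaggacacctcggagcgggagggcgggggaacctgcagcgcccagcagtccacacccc

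The 119035 barcodes left 96649 nuclei after filters. Clusters of all libraries together, made without the members, were named from marker genes, and 65077 nuclei were adipocyte-like. Within each library all 8 adipocyte markers were at least 3.07 times as high in adipocyte-like nuclei as in the other named classes. Median UMIs (distinct RNA molecules) of an adipocyte-like nucleus ran from 890 in lPRAT at 2 months to 6630.5 in iWAT, and their total from 2511176 to 70037766. Ucp1, the brown-fat uncoupler, ran from 1469 CPM (counts per 1000000 UMIs of the class) in cold iBAT to 0.812 in iWAT and 0.132 in lPRAT at 6 months. It had no UMI in lPRAT at 2 months, which allows up to 1.19 CPM. In cold mPRAT 66.0% of barcodes were over the mitochondrial limit, against at most 22.1% elsewhere. Any pair of libraries shared 3 to 76 barcodes, at most 0.734% of the smaller one.

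Levels below are CPM of the summed UMIs of adipocyte-like nuclei in a library. With 1 library a group, no comparison within a depot could be tested; cold was tested across the 3 depots that have a cold library. Intervals of 95% cover counting error only, comparisons are log2 ratios with 1 CPM added to both levels, and a gene is counted as higher or lower where it passed 2-fold. In sums over nuclei, fewer nuclei with a transcript and less of it per nucleus cannot be told apart, and the shares of nuclei with a UMI given later largely follow the level.

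Among the enzymes that make acetyl-CoA, Acly read 497, 175 and 332 CPM in mPRAT at 1, 2 and 6 months and 675, 258 and 830 in iBAT at the same ages. It read 162 and 37.2 CPM in lPRAT at 2 and 6 months and 28.3 in iWAT. After cold it stood at 1085 CPM in mPRAT, 1418 in iBAT and 291 in iWAT. Each cold library was thus the highest of its depot, and the level in cold iBAT was 50.2 times that in iWAT at room temperature. Acss2 read 467, 264 and 455 CPM in mPRAT and 257, 318 and 490 in iBAT with age, 199 and 114 in lPRAT, and 97.4 in iWAT. Its cold levels were 1104 CPM in mPRAT, 646 in iBAT and 647 in iWAT, and they were again the highest of each depot.

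The carboxylases are long genes. Acaca, the carboxylase of synthesis, read 3486, 2981 and 4197 CPM in mPRAT and 2053, 1844 and 6461 in iBAT at 1, 2 and 6 months. It read 2528 and 1455 in lPRAT and 1069 in iWAT, and 4765, 5619 and 3202 CPM in cold mPRAT, iBAT and iWAT. By CPM cold iBAT was lower than iBAT at room temperature, the reverse of the order in mPRAT and iWAT. This small difference rests on the scaling, as given below. Acacb, the carboxylase that restrains oxidation, read 3664, 2921 and 1478 CPM in mPRAT and 2896, 2679 and 2218 in iBAT, so its lowest room-temperature level in both depots was at 6 months. It read 1314 and 974 CPM in lPRAT and 491 in iWAT, and 3315, 3834 and 1632 in cold mPRAT, iBAT and iWAT.

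Fasn, the synthase, read 332, 200 and 334 CPM in mPRAT, 442, 288 and 963 in iBAT, 204 and 48.4 in lPRAT and 19.9 in iWAT. In the cold it read 756, 1147 and 159 CPM in mPRAT, iBAT and iWAT. Its highest level was 57.5 times its lowest. Me1, the NADPH source, read 296, 370 and 745 CPM in mPRAT and 134, 294 and 337 in iBAT, and so its order by age was the same in both depots. It read 358 and 294 in lPRAT and 206 in iWAT, and in the cold 1786 CPM in mPRAT, 955 in iBAT and 1668 in iWAT. Cold iWAT thus came close to cold mPRAT in Me1, whereas its Fasn level stayed under that of every mPRAT and iBAT library.

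Of the desaturases, Scd1 read 662, 411 and 371 CPM in mPRAT, 518, 523 and 880 in iBAT, 963 and 561 in lPRAT and 187 in iWAT. Its cold levels were 735 CPM in mPRAT, 510 in iBAT and 1122 in iWAT, which was its highest of all. Scd2 read 14.2, 9.05 and 26.2 CPM in mPRAT, 6.10, 7.80 and 23.7 in iBAT, 23.5 and 6.79 in lPRAT and 1.74 in iWAT, the last from 60 UMIs. Cold libraries held 138 CPM of Scd2 in mPRAT, 108 in iBAT and 19.1 in iWAT. Other desaturases of the cluster, Scd3 and Scd4, were at most 1.45 and 0.796 CPM in any library.

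Of the regulators, Srebf1 read 160, 104 and 169 CPM in mPRAT, 201, 110 and 156 in iBAT, 214 and 140 in lPRAT and 82.1 in iWAT, and 203, 153 and 120 in cold mPRAT, iBAT and iWAT. Its highest level was 2.60 times its lowest, the narrowest range of the 10 members. Mlxipl read 1075, 618 and 646 CPM in mPRAT, 1506, 988 and 1113 in iBAT, 377 and 482 in lPRAT and 372 in iWAT. In the cold it read 1477 CPM in mPRAT and 2374 in iBAT, and 340 in iWAT, its lowest level of all. Their relatives Srebf2, the cholesterol-directed factor, and Mlxip, a paralog of Mlxipl, ran from 28.5 to 110 CPM and from 64.2 to 155 CPM, and Mlx, the binding partner of both Mlxipl and Mlxip, from 1.59 to 17.0 CPM.

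**Figure D1:**
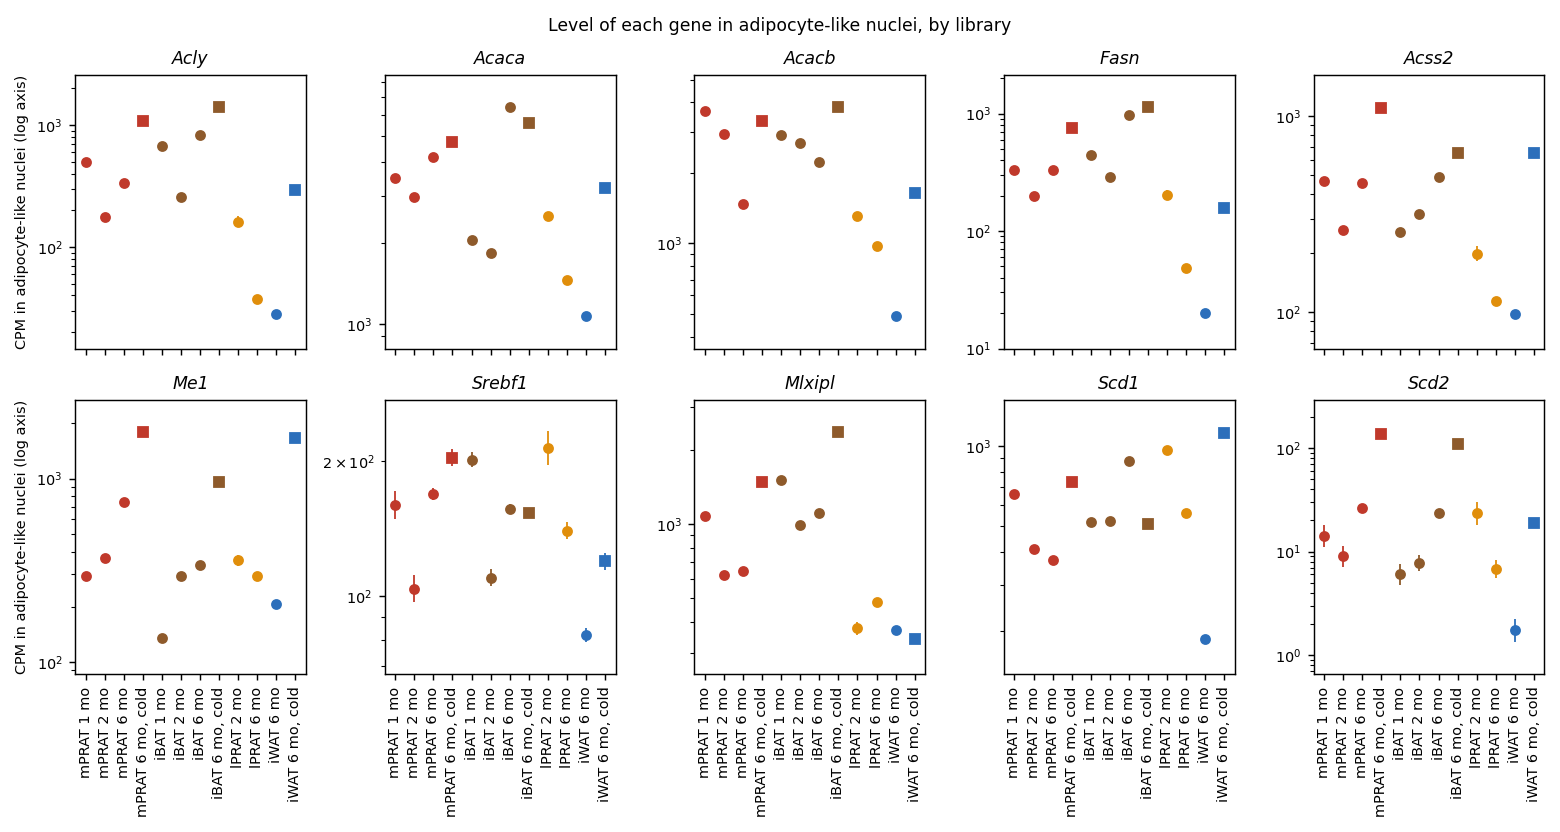
Level of each member in adipocyte-like nuclei (CPM, log axis) in the 12 libraries along the horizontal axis, with 1 point a library, squares for cold and bars for 95% counting intervals (often hidden by the point). Colors mark mPRAT (red), iBAT (brown), lPRAT (orange) and iWAT (blue); iWAT at room temperature is the lowest point for 8 of the 10 members, all but Me1 and Mlxipl.

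Genes differ in length, and long genes give more nuclear reads, so members were ranked against each other per kb of gene body. That takes reads to be in proportion to length, which was not checked, and it changes the order. By CPM in room-temperature iWAT, Acaca (1069) was above Scd1 (187). On that scale Scd1 ranked first in 11 of 12 libraries, from 13.9 CPM per kb in iWAT to 83.6 in cold iWAT. In cold iBAT it had 38.0 CPM per kb, after Fasn (61.3) and Mlxipl (49.0). Acaca had 23.8 CPM per kb in iBAT at 6 months, below Scd1 (65.6) and Fasn (51.5). Scd2 ranked last or next to last in each library.

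The first comparison asked how the depots differ at 6 months and room temperature. All 10 members had a higher level than iWAT in iBAT, in mPRAT and in lPRAT. In iBAT against iWAT 8 members were at least 2-fold higher and none was 2-fold lower, with a median log2 ratio over the members of 2.27 against 0.07 over the 16281 genes with at least 20 counts. Of those genes 12.2% were at least 2-fold higher and 11.4% at least 2-fold lower. The log2 ratio was 5.53 for Fasn (5.49 to 5.71 without the added CPM), 4.83 for Acly, 2.59 for Acaca and 2.23 for Scd1, while Srebf1 at 0.92 and Me1 at 0.70 stayed within 2-fold. In mPRAT against iWAT 8 members were higher too, with a median of 1.91 (0.09 over all genes), and 7.52% of genes were higher and 4.68% lower. Fasn led again with 4.00, followed by Acly with 3.51, while Mlxipl was at 0.80 and Scd1 at 0.99. Srebf1, at 1.03 in this comparison, was within 2-fold under other scalings, at 0.92 with TMM factors. In lPRAT against iWAT 3 members were higher, Scd1 (1.58), Scd2 (1.51) and Fasn (1.24), with a median of 0.63 (0.06 over all genes) and 6.34% of genes higher and 3.63% lower. With 10 CPM added in place of 1, only Scd1 passed. These comparisons share the iWAT library. Among adipocyte-like nuclei of at least 1000 UMIs, the largest share lay in cluster 8 in iBAT at 6 months, cluster 5 in mPRAT and cluster 6 in lPRAT and iWAT.

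Between the depots richest in these transcripts the order differed by gene. In mPRAT against iBAT at 6 months Me1 was higher by 1.14 on the log2 scale, whereas Fasn (-1.53), Acly (-1.32) and Scd1 (-1.25) were lower. The other 6 members were within 2-fold, and Scd2 at 0.14 had an interval that included 0. Over all genes 7.77% were at least 2-fold higher in mPRAT and 4.01% lower, and the median was -0.60 over the members and 0.00 over all 15985 genes tested. The mitochondrial acetate enzyme Acss1 and the mitochondrial malic enzyme Me3 also separated the depots. Against iWAT, Acss1 was higher by 3.61 in iBAT and 1.88 in mPRAT, and Me3 by 4.12 and 2.06, but lPRAT gave -0.36 for Acss1 and -0.31 for Me3. Of the 40 listed genes around the pathway, 20 were at least 2-fold higher and 2 lower in iBAT against iWAT, 17 and 1 in mPRAT, and 4 and 2 in lPRAT. Elovl6, the elongase that takes palmitate to stearate, was the highest of the 40 in iBAT and mPRAT, and was among the 3 lowest in lPRAT.

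Age was followed in mPRAT, iBAT and lPRAT. From 1 to 2 months in mPRAT, 9 of 10 members had a log2 ratio below 0, with a median of -0.65 against -0.14 over all 12969 genes. Only Acly (-1.50) passed 2-fold, where 4.82% of genes were lower and 1.5% higher, and Me1 (0.32) was the only member above 0. In iBAT over the same interval Acly passed 2-fold downwards (-1.38) and Me1 upwards (1.12, or 0.94 among nuclei of at least 1000 genes, within 2-fold), while 2.47% of genes were lower and 1.17% higher. Srebf1 (-0.86), Fasn (-0.62) and Mlxipl (-0.61) were lower within 2-fold, and Scd1 at 0.01 had an interval that included 0. The member median was -0.13 and that of all genes -0.04. Of the 40 pathway genes, 2 passed 2-fold in each direction in mPRAT and none in iBAT. Among adipocyte-like nuclei of at least 1000 UMIs the commonest cluster of iBAT was 4 at 1 month and 1 at 2 months. That of mPRAT was 0 at both ages.

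From 2 to 6 months, a comparison that shares the 2-month libraries with the one before, the depots went apart. In iBAT Acaca (1.81), Fasn (1.74), Acly (1.68) and Scd2 (1.49, or 0.92 with 10 CPM added) were at least 2-fold higher, where 4.77% of genes were higher and 3.34% lower, and Acacb at -0.27 was the only member below 0. The median was 0.69 over the members and 0.05 over all 15456 genes. In mPRAT Scd2 (1.43) and Me1 (1.01) passed 2-fold, where 5.77% of genes were higher and 3.67% lower, and Fasn (0.73), Acly (0.92) and Acss2 (0.78) were higher within 2-fold. Acacb went the other way, at -0.98, and passed 2-fold with TMM (-1.03) and median-of-ratios factors (-1.09), so that with either scaling 1 member, Scd2, was higher and 1 lower. The call on Me1 is at the edge, with 0.91 among nuclei of at least 1000 genes and 0.96 with TMM factors, and Scd2 gave 0.93 with 10 CPM added. The median was 0.71 over the members and 0.12 over all 14760 genes. Among adipocyte-like nuclei of at least 1000 UMIs the commonest cluster was 1 at 2 months and 8 at 6 months in iBAT. In mPRAT it was 0 and 5.

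In lPRAT 9 of 10 members were lower at 6 months. Acly (-2.09), Fasn (-2.06) and Scd2 (-1.65) were at least 2-fold lower, where 9.55% of genes were lower and 12% higher, and the median was -0.79 over the members against 0.15 over all 13293 genes. Mlxipl, at 0.35, was the only member above 0. Of the 40 pathway genes, 4 were at least 2-fold lower and 2 higher in lPRAT, and 3 were higher and none lower in mPRAT. In iBAT 2 of the 39 tested were higher and none lower. Over all genes 9.55% were lower and 12% higher in lPRAT, and 5.77% were higher in mPRAT and 4.77% in iBAT. The younger lPRAT library was the shallowest, with 2087 adipocyte-like nuclei against 1941 of much greater depth at 6 months. Among its adipocyte-like nuclei of at least 1000 UMIs, 438 of 885 lay in cluster 5, the commonest. At 6 months the commonest cluster of such nuclei was 6. Among nuclei with at least 1000 genes Acly was at -2.03, Fasn at -1.46 and Scd2 at -1.15. With 10 CPM added Scd2 was just within 2-fold (-0.996).

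The next comparison asked how each depot responded to cold, which the design of the series names. In iWAT 8 of 10 members were at least 2-fold higher, with a median log2 ratio of 2.65 against -0.18 over all 14986 genes, where 2.55% of genes were at least 2-fold higher and 5.72% lower. Acly was higher by 3.32, Me1 by 3.01, Fasn by 2.93, Scd2 by 2.87, Acss2 by 2.72 and Scd1 by 2.58, and the carboxylases Acacb and Acaca by 1.73 and 1.58. For Scd2 the plain log2 ratio, without the added CPM, was 3.45 (3.05 to 3.88). Srebf1 at 0.54 stayed within 2-fold, and Mlxipl at -0.13 (-0.17 to -0.08) was lower by plain CPM. That sign turned with the scaling, to 0.04 with the TMM factors of edgeR and 0.08 with the median-of-ratios factors of DESeq2, which shift the median of all genes by 0.14 and 0.17.

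In mPRAT 7 members were at least 2-fold higher in the cold, where 7.95% of genes were at least 2-fold higher and 7.33% lower. Scd2 was higher by 2.36, Acly by 1.70, Acss2 by 1.28, Me1 by 1.26, Mlxipl by 1.19, Fasn by 1.18 and Acacb by 1.17, and Scd1 at 0.99 was just short of 2-fold. Srebf1 (0.27) and Acaca (0.18) differed least. The median was 1.18 over the members and -0.04 over all 14881 genes. Without the mitochondrial limit, which removed most barcodes of the cold library, 7 members were again past 2-fold. Acacb came to 0.99 where each nucleus was weighted equally.

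In iBAT 3 members passed 2-fold. Scd2 (2.15), Me1 (1.50) and Mlxipl (1.09) were higher, where 5.58% of genes were at least 2-fold higher and 8.78% lower, and the member median was 0.58 against -0.09 over all 16354 genes. Acacb (0.79), Acly (0.77), Acss2 (0.40) and Fasn (0.25) were higher within 2-fold. Scd1 was lower, at -0.79 (-0.81 to -0.77), and Acaca was at -0.20. TMM and median-of-ratios factors shift the median of all genes here upward by 0.13 each, so the small Acaca difference rests on the scaling. Srebf1, at -0.03, had an interval that included 0 and came to 0.15 with either other scaling. The starting level of several members in iBAT was already above the cold level in iWAT, as for Fasn with 963 CPM before cold in iBAT and 159 CPM after cold in iWAT. In each of the 3 depots the cold and room-temperature adipocyte-like nuclei of at least 1000 UMIs had different commonest clusters (9 and 5 in mPRAT, 10 and 8 in iBAT, 5 and 6 in iWAT). The room-temperature libraries here are those of the depot comparisons.

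Cold was also fitted over these 6 libraries at once, with depot as a block and 2 residual degrees of freedom, by edgeR's quasi-likelihood test on the summed counts, an analysis chosen after seeing the data. The depots stand in for replicates, so its p-values measure the spread between depots. None of the 10 members passed at an adjusted p of 0.05, where 0.107% of the 18605 genes were called higher and 0.0269% lower. At an unadjusted p of 0.05, 8 members were higher and none lower, where 10.9% of genes were higher and 8.43% lower. Scd2 came nearest, with a fitted log2 change of 2.80 (SE 0.28) and an adjusted p of 0.0504 by edgeR, higher in 3 of 3 depots. Acly was at 2.09 (SE 0.52, adjusted p 0.14), Me1 at 2.07 (SE 0.40, adjusted p 0.098) and Acacb at 1.39 (SE 0.27, adjusted p 0.097), each higher in 3 of 3 depots. Fasn was at 1.60 (SE 0.54, adjusted p 0.21), and Scd1, whose sign differed between depots, at 1.09 (SE 0.66, adjusted p 0.42). The median over the members was 1.50, against 0.01 over all genes. DESeq2 with the same block called 6 members higher, Scd2, Me1, Acacb, Acly, Acss2 and Fasn, where 5.96% of 15358 genes were higher and 4.5% lower. Without iWAT edgeR called 5 members, Scd2, Me1, Mlxipl, Acly and Acacb, all higher, where it called 7.16% of genes higher and 5.66% lower. Without iBAT it called Scd2 alone among the members, and 0.102% of genes higher and 0.086% lower. Without mPRAT it called no gene, and at an unadjusted p of 0.05 it had 6 members higher, where 4.11% of genes were higher and 3.25% lower. Of the 40 pathway genes none passed by edgeR, with 22 higher and none lower at an unadjusted p of 0.05, while 16 were higher without iWAT and 17 by DESeq2.

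**Figure D2:**
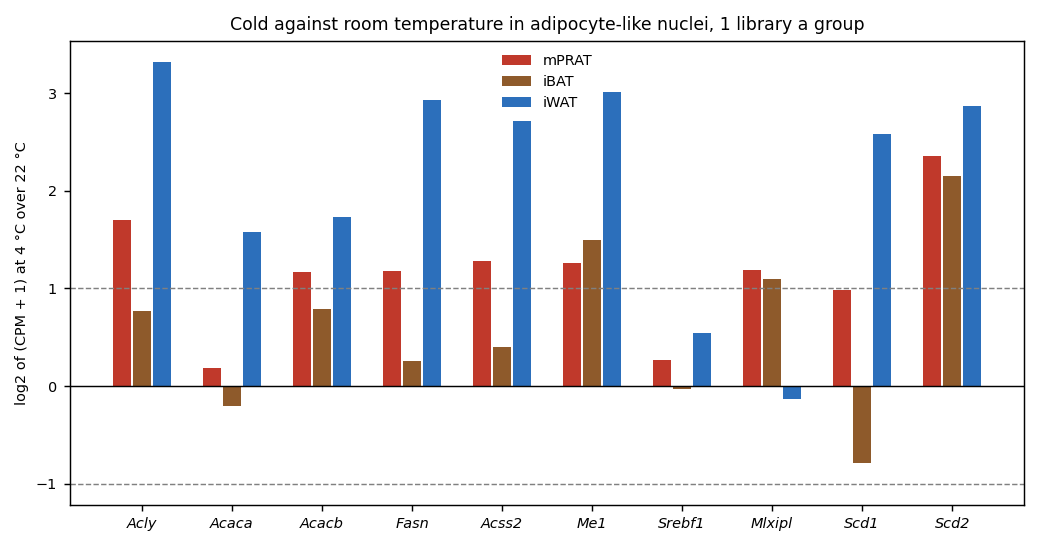
Log2 ratio of (CPM + 1) at 4 °C over 22 °C for the 10 members in adipocyte-like nuclei of mPRAT (red), iBAT (brown) and iWAT (blue), 1 library at each temperature; dashed lines mark 2-fold. The bars of all members but Mlxipl are longest in iWAT, Scd1 is below 0 in iBAT alone, and Mlxipl is near 0 in iWAT alone.

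The genes around the pathway followed in part. Of the 40, 13 were at least 2-fold higher and 1 lower in cold iWAT, 12 and none in mPRAT, and 6 and none in iBAT, with medians of 0.57, 0.67 and 0.30. Over all genes 2.55%, 7.95% and 5.58% were at least 2-fold higher in these depots, and 5.72%, 7.33% and 8.78% lower. Elovl6 led the 40 in each depot, by 2.80 in iWAT, 2.29 in mPRAT and 1.46 in iBAT. Next in iWAT were Insig1 (2.10), the sterol-regulated retention protein of SREBP, and Thrsp (2.00), a thyroid-hormone-responsive gene of lipogenic tissue. In mPRAT Elovl5, an elongase of polyunsaturated fatty acids, was next with 1.67. In iBAT it was Pgd, a dehydrogenase of the pentose phosphate pathway that yields NADPH, with 1.13. Dgat2, which esterifies the finished fatty acid, was the lowest of the 40 in mPRAT (-0.45) and iBAT (-0.68). Me3 was higher by 1.75 in cold mPRAT, and was at 0.99 in iBAT and at -0.38 in iWAT.

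Across the 12 libraries the genes whose level in adipocyte-like nuclei ran most like the mean of the members were Dipk1b (Pearson r 0.98), Agpat2 (0.95), Mpc1 (0.94), Poln (0.93), Mtss1 (0.92), Gbe1 (0.92), Ttc25 (0.91) and Hccs (0.90), among 6422 genes of at least 20 CPM on average. Agpat2 encodes an acyltransferase of triglyceride synthesis, Mpc1 a subunit of the mitochondrial pyruvate carrier and Gbe1 the glycogen branching enzyme. Within the group, each member was set against the mean of the other 9. Acly (0.93), Fasn (0.92), Acss2 (0.91), Acaca (0.89) and Scd2 (0.86) ran closest to it, and Mlxipl (0.66), Srebf1 (0.58), Me1 (0.53) and Scd1 (0.51) least closely. These correlations over 12 libraries are a description; the points differ together in depot, age, temperature and depth.

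Detection was then followed nucleus by nucleus. A nucleus of few UMIs misses most genes, so each was thinned at random to 1000 UMIs and shallower ones were left out, between 4 of 3350 adipocyte-like nuclei in mPRAT at 6 months and 2936 of 8337 in iBAT at 1 month, and 1202 of 2087 in lPRAT at 2 months. On this scale a nucleus of iWAT at room temperature had UMIs of 1.84 members on average and one of cold iWAT 3.65. The mean was 3.48 in mPRAT at 6 months and 5.04 in the cold, and 4.95 and 5.57 in iBAT. Macrophage-like nuclei of the same libraries, thinned alike, had 0.50 and 0.64 in iWAT, 0.78 and 0.70 in mPRAT, and 2.35 and 2.16 in iBAT. Before thinning or the cut on depth, the median macrophage-like nucleus of mPRAT had 2161.5 UMIs at room temperature and 1455 after cold (adipocyte-like 6158.5 and 4403). For iBAT these medians were 864 and 1917.5 (adipocyte-like 2152 and 6623). Of its macrophage-like nuclei 93 of 231 at room temperature and 246 of 288 after cold had the 1000 UMIs needed. Without thinning the means were 4.84 and 6.15 in iWAT, 6.70 and 7.47 in mPRAT and 6.49 and 8.53 in iBAT.

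In iWAT the shares of nuclei with a UMI followed the levels. Fasn was found in 2.19% of nuclei at room temperature (interval from the binomial 1.77 to 2.69) and in 14.7% after cold. Acly went from 2.78% to 18.2%, Me1 from 17.5% to 49.8% and Scd1 from 14.1% to 53.5%. In macrophage-like nuclei of the same libraries Fasn was in 0.980% and 2.61%, Acly in 3.19% and 6.09%, Me1 in 2.94% and 7.39%, and Scd1 in 4.66% and 8.26%. The macrophage-like levels of Acly and Scd1 in room-temperature iWAT were above the limit for leaked adipocyte RNA described later. Over all genes 55.1% of macrophage-like values passed that limit. Median depth was 6630.5 and 4711 UMIs in adipocyte-like and 1376.5 and 974.5 in macrophage-like nuclei before thinning or the cut on depth. Among macrophage-like nuclei of at least 1000 UMIs it was 1910 and 1481.5. In iBAT the macrophage-like shares were far higher. Fasn was in 36.6% of macrophage-like nuclei at 6 months against 59.6% of adipocyte-like ones. After cold it was in 37.8% against 65.3%, and macrophage-like Fasn was above the limit for leaked RNA. Unthinned, Fasn was in 12.9% and 41.4% of adipocyte-like nuclei of iWAT.

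With age the shares followed the levels. In mPRAT Acly was in 31.8%, 13.2% and 22.4% of adipocyte-like nuclei at 1, 2 and 6 months and in 44.0% after cold, against 5.52% to 14.0% of macrophage-like nuclei in these libraries. In iBAT it was in 41.9%, 18.3%, 51.1% and 64.8%, against 6.45%, 9.52%, 19.4% and 19.1%. The lowest share in both depots was at 2 months, as for the level. In lPRAT Fasn was in 15.3% at 2 months and 4.94% at 6 months, where 8.70% and 0.197% of macrophage-like nuclei had it, and Acly in 13.1% and 3.16%, where 2.17% and 4.04% of macrophage-like nuclei had it. Macrophage-like Acly was above the limit for leaked adipocyte RNA in the older lPRAT library and in room-temperature mPRAT at 2 and 6 months. Over all genes 55.1% of macrophage-like values passed that limit. Me1 in iBAT was in 7.91% at 1 month, 14.7% at 2 months, 24.8% at 6 months and 46.0% after cold, where 0 of 31 macrophage-like nuclei (which allows up to 9.68%), 9.52%, 5.38% and 13.8% had it. Scd2 was in at most 3.05% of adipocyte-like nuclei at room temperature. It was in 11.6% in cold mPRAT and 10.2% in cold iBAT, against 2.07% and 2.03% of macrophage-like nuclei. In mPRAT at 6 months and room temperature it was in 2.18% of adipocyte-like and 2.17% of macrophage-like nuclei. No thinned macrophage-like nucleus of the other libraries had it, which allows from 0.295% in lPRAT at 6 months up to 14.3% in iBAT at 2 months. Unthinned sums did hold Scd2. Its macrophage-like level was above the limit for leaked RNA in mPRAT at 2 months, lPRAT at 6 months and room-temperature iWAT. Srebf1, the sterol-regulated factor, was in between 8.96% and 18.9% in the 12 libraries, against at most 9.52% of macrophage-like nuclei. Macrophage-like nuclei numbered 21 to 1016 in these libraries.

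In part of the libraries some members were found in the same nuclei more often than their separate shares would give. For each of the 45 pairs the number of nuclei with both was divided by the number expected from the product of their shares, where at least 10 were expected. In mPRAT at 6 months 15 of 45 pairs reached an excess of 25% over the expected number, in cold iWAT 14 of 42, in iBAT at 2 months 9 of 42 and in mPRAT at 1 month 8 of 40. In iBAT at 6 months no pair of 45 reached it at either temperature, in iWAT at room temperature 2 of 33 did, and in the other libraries between 3 and 7 did. The counts of mPRAT at 1 month and of cold mPRAT depended on the depth, at 15 and 17 with 500 UMIs a nucleus and 3 and 2 with 2000, against 8 and 6 here. Among the 45 pairs of 10 other adipocyte genes, such as Adipoq, Plin1 and Lpl, none reached it in 9 libraries, 1 did in mPRAT at 1 month and at 6 months, and 3 did in cold mPRAT. That list is detected more often, with a median share of 46.98% to 75.1% by library against 11.8% to 55.4% for the members, and a high share caps the ratio.

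The odds ratio has no such cap. It was at least 1.5 for 32 of 45 member pairs in cold mPRAT, 29 of 45 in mPRAT at 6 months, 22 of 42 in cold iWAT, 14 of 45 in cold iBAT and 8 of 45 in iBAT at 6 months, but for 1 of 33 in iWAT at room temperature and 1 of 32 in lPRAT at 6 months. Among the pairs of the other adipocyte genes it reached 1.5 for 7 in cold mPRAT, 5 in mPRAT at 6 months, 2 in cold iWAT, 3 in iWAT at room temperature and none in either iBAT library at 6 months. The odds ratio was chosen after seeing the data.

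Acly with Fasn and Fasn with Me1 reached the 25% excess in 8 libraries each, the highest number among the 45 pairs. In cold iWAT Acly and Fasn were both in 160 of 2639 nuclei where 70.2 were expected, a ratio of 2.28, and the joint share was 6.06% (5.18 to 7.04). In mPRAT at 6 months both were in 354 of 3346 where 194 were expected (1.83), and after cold in 612 of 2064 where 423 were expected (1.45). Over 10 libraries with enough expected nuclei the ratio was above 1 in all 10 and the excess at least 25% in 8, and its lowest value, 1.06, was in iBAT at 6 months. Acly with Acss2 reached 2.11 in cold iWAT, and Acss2 with Scd2 2.83 in mPRAT at 6 months. The carboxylases had a ratio of 1.02 and an odds ratio of 1.61 in cold iWAT, and their odds ratio over the 12 libraries ran from 0.993 to 3.24. Fasn with Me1 was at 0.57 in iWAT at room temperature, from 9 nuclei where 15.8 were expected.

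Acly, Acaca and Fasn cover the steps from citrate to palmitate. Together they were in 5.99% of nuclei of cold iWAT (5.11 to 6.96) against 2.25% expected. At room temperature they were in 1 of 4106 nuclei of iWAT, 0.0244% against 0.0377% expected. In cold mPRAT they were in 29.2% against 17.9% expected, and in cold iBAT in 45.7% against 40.9%. Fasn was also found more often in nuclei with many other members. In cold iWAT 3.88% of nuclei with at most 1 of the other 9 members had Fasn, 6.79% of those with 2 or 3, and 25.1% of those with 4 or more. In mPRAT at 6 months the same shares were 9.24%, 18.2% and 40.5%. For room-temperature iWAT they were 2.11%, 2.27% and 2.10%, the last from 286 nuclei. Fasn was in only 90 of the 4106 nuclei there, so a gradient could be missed. The number of members per nucleus varied more than independence gives, by 2.19 times in variance in cold mPRAT, 1.82 in cold iWAT and 1.79 in mPRAT at 6 months. It was 1.10 in iWAT at room temperature and 1.02 in lPRAT at 6 months, and 1.22 and 1.50 in iBAT at 6 months and after cold. This measure also depends on how often members are found. Their mean per nucleus was 1.84 in room-temperature iWAT and 2.50 in lPRAT at 6 months, against 5.04 in cold mPRAT.

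Adipocyte-like nuclei fall in several clusters, so the pairs were also counted in the commonest cluster of each library. There 14 of 42 pairs reached the 25% excess in cold iWAT, 11 of 40 in mPRAT at 6 months and 6 of 45 in cold mPRAT. In iBAT the count went from 9 to 1 at 2 months and from 6 to 1 at 1 month, and in mPRAT at 2 months from 7 to 3. It went from 5 to 3 in lPRAT at 2 months and from 2 to 1 in iWAT at room temperature, but from 3 to 6 in lPRAT at 6 months and from 8 to 9 in mPRAT at 1 month, and it was 0 in both iBAT libraries at 6 months. That cluster held 32.1% and 33.2% of the thinned adipocyte-like nuclei in iBAT at 2 and 1 months, 60.3% in mPRAT at 2 months, and 69.3% in cold iWAT.

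**Figure D3:**
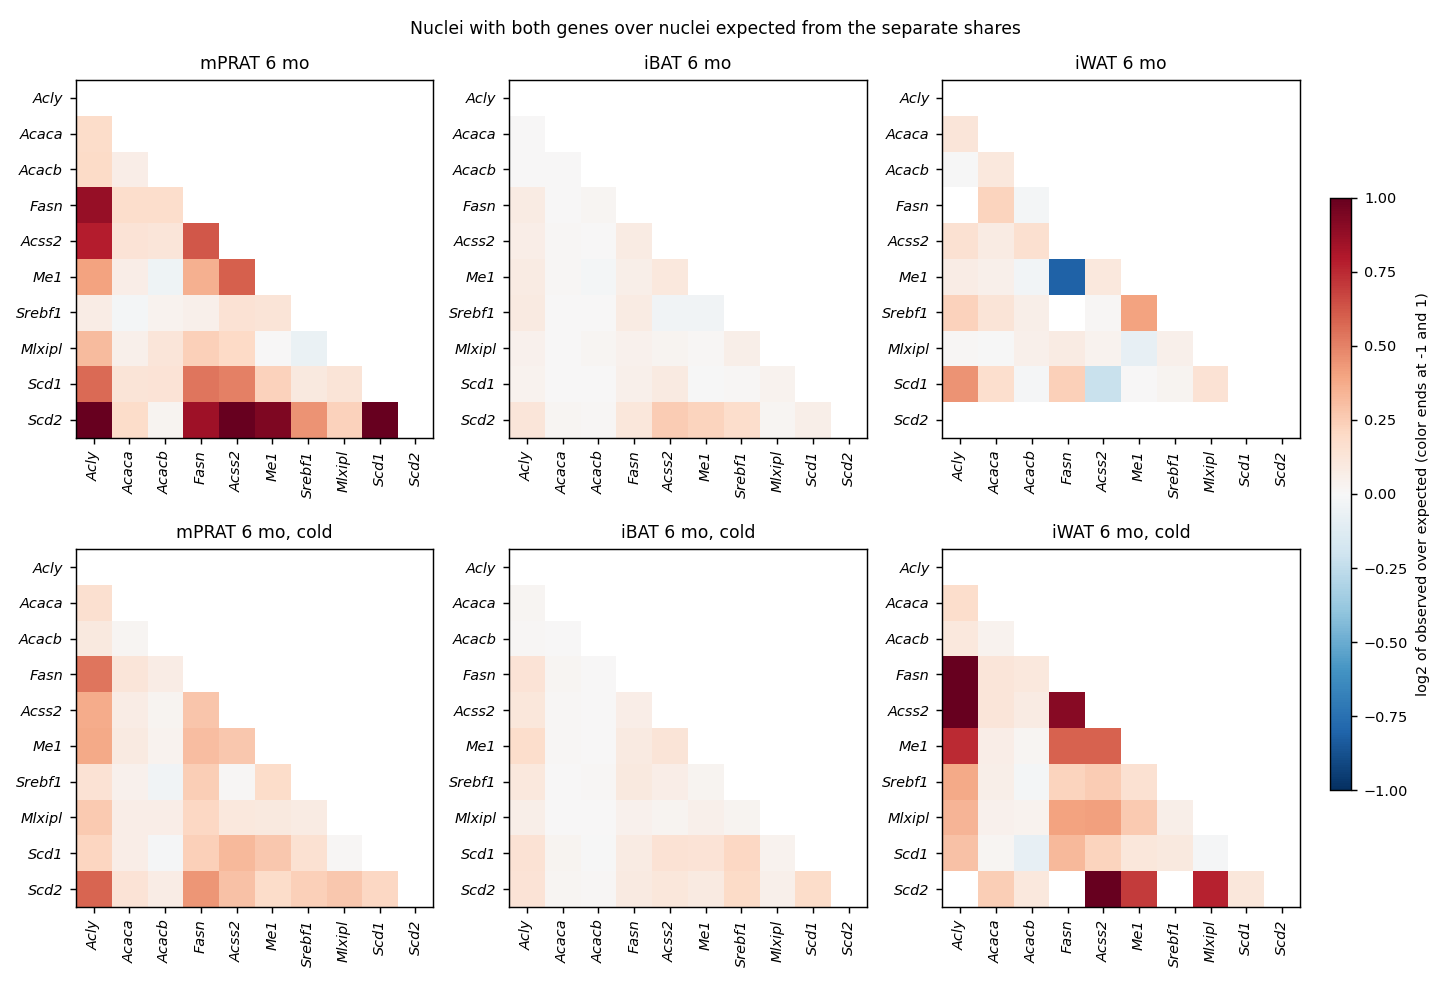
Each cell is the log2 of the nuclei with both genes over the nuclei expected from their separate shares, in adipocyte-like nuclei thinned to 1000 UMIs, with room temperature above and cold below for mPRAT, iBAT and iWAT at 6 months; blank cells expected under 10 nuclei. The cells among Acly, Fasn, Acss2 and Me1 are red in mPRAT and in cold iWAT, as for Acly with Fasn (ratios 1.83, 1.45 and 2.28), and nearly white in both iBAT libraries (1.06 and 1.10).

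Nuclei with and without a Ucp1 UMI were set side by side in the libraries that had at least 50 of each. A Ucp1 UMI can also be leaked RNA. Macrophage-like nuclei, thinned alike, had one in 3.45% in cold mPRAT, 20.3% in cold iBAT and 0.435% in cold iWAT, against 43.7%, 73.7% and 2.88% of adipocyte-like nuclei. At room temperature they had it in 0.722% to 6.98% in mPRAT and 3.23% to 14.3% in iBAT, against 8.56% to 16.9% and 27.0% to 34.96%. The part of leaked Ucp1 in the values that follow was not tested. In cold mPRAT 902 nuclei with Ucp1 had Acly in 52.3% and Scd1 in 31.3%, against 37.5% and 44.8% in the 1162 without. In cold iWAT the 76 nuclei with Ucp1 had Scd1 in 10.5%, Acly in 7.89% and Acacb in 93.4%, against 54.7%, 18.5% and 70.8% in the 2563 without. In cold iBAT Fasn was in 65.1% of 7084 nuclei with Ucp1 and 65.8% of 2526 without, Acly in 64.1% and 66.9% and Me1 in 44.9% and 49.1%. Scd1 in cold iBAT was in 34.6% with and 35.7% without. In mPRAT at room temperature it was in 42.6% with and 35.5% without Ucp1 at 1 month, 28.0% and 26.3% at 2 months, and 24.2% and 23.7% at 6 months. In iBAT at 1, 2 and 6 months Scd1 was in 31.0%, 33.6% and 55.9% with and 33.4%, 36.7% and 54.8% without Ucp1. Acly was less frequent with Ucp1 in iBAT at 2 months (14.5% and 20.3%) and 6 months (45.9% and 53.4%), and more frequent in mPRAT at 6 months (28.1% and 21.5%). Fasn was in 16.7% and 23.7% in iBAT at 2 months and in 33.6% and 24.5% in mPRAT at 6 months.

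The members were then followed in the other classes of nuclei, named from markers with the ending "-like". RNA that leaks from adipocytes adds to every class, so each member's level in a class was divided by its level in adipocyte-like nuclei of the same library. That ratio was set against the same ratio of the 8 genes that had named the adipocyte-like clusters, Adipoq, Plin1, Plin4, Cidec, Lipe, Acvr1c, Adrb3 and Tshr, of which the highest served as a limit. A member counted as above it where the lower end of its counting interval exceeded the limit, in libraries with at least 50 nuclei of the class. In adipose stem and progenitor cell (ASPC)-like nuclei 40 of 120 values were above (33.3%), in endothelial-like 22 of 110 (20%), in mural-like 12 of 80 (15%), in macrophage-like 19 of 110 (17.3%), in dendritic-like 18 of 80 (22.5%), in T or NK-like 13 of 60 (21.7%), in B-like 14 of 50 (28%), in mesothelial-like 15 of 50 (30%) and in epithelial-like nuclei 20 of 40 (50%). Over all genes with at least 20 counts in adipocyte-like nuclei the same share was 43.2% (T or NK-like) to 79.7% (epithelial-like), apart from 30.4% in the 51 Schwann-like nuclei and 81.2% in kidney tubule-like ones. In each of the classes just listed the members' share was below that of all genes. The counts rest on the limit: against the median of the 8 markers 94 of 120 values were above in ASPC-like nuclei, and with nuclei gated by markers one by one only 1 library kept 50 dendritic-like nuclei, with 2 of 10 values above.

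Scd2 was above the limit in 11 of 12 libraries of ASPC-like nuclei (all genes 75.6%), 8 of 11 of endothelial-like (59.1%), 6 of 8 of mural-like (53.6%), 5 of 5 of mesothelial-like (73.4%) and 4 of 4 of epithelial-like nuclei (79.7%). In macrophage-like nuclei it was above in 4 of 11 (55.1%) and in dendritic-like in 4 of 8 (47.7%). Its level in ASPC-like nuclei ran from 13.4 to 75.9 CPM with a median of 31.6, a median of 2.01 times the adipocyte level, and in Schwann-like nuclei of mPRAT at 1 month it was 200 CPM (106 to 341) against 14.2 in adipocyte-like nuclei. Since its adipocyte level is low at room temperature, the ratio reached 9.71 in ASPC-like and 16.5 in B-like nuclei, the latter in iWAT with 28.7 CPM against 1.74. In cold mPRAT the adipocyte level of 138 CPM was above the 75.9 CPM of ASPC-like nuclei.

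Scd1 had its own pattern. In endothelial-like nuclei of iBAT at 6 months it read 1321 CPM (1236 to 1410), above the 880 CPM of adipocyte-like nuclei, a ratio of 1.50 where the limit was 0.41. At 1 and 2 months in iBAT the endothelial-like level was 123 and 205 CPM, and in cold iBAT 495 CPM. In mPRAT it ran from 73.7 to 304 CPM. In B-like nuclei Scd1 was above the limit in 4 of 5 libraries (all genes 43.6%), with 280 CPM from 3531 nuclei of mPRAT at 6 months (adipocyte-like 371) and 209 CPM from 465 nuclei of iWAT (adipocyte-like 187). The macrophage-like level in iBAT at 6 months was 809 CPM, 0.92 of the adipocyte level.

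Nuclei like those of neighbouring organs had some members above the limit, which need not be a level above that of adipocyte-like nuclei. In adrenal cortex-like nuclei 8 of the members' 20 values passed it, against 76.0% over all genes. In skeletal muscle-like nuclei 2 of 10 did, against 47.9%. In adrenal cortex-like nuclei of mPRAT at 6 months Me1 read 1556 CPM (1459 to 1657) and after cold 1792 (1686 to 1903), against 745 and 1786 in adipocyte-like nuclei. Acly was at 341 and 359 CPM there, and Mlxipl and Scd1 were not above the limit in either. Kidney tubule-like nuclei of mPRAT at 1 and 2 months had Mlxipl at 648 and 420 CPM, Acss2 at 288 and 355 and Me1 at 212 and 322, all above the limit, which 81.2% of all genes' values and 8 of the members' 20 passed, whereas Scd2 was at 8.00 and 1.42 CPM, from 4 and 2 UMIs. Epithelial-like nuclei, found in mPRAT, had Me1 at 210 to 317 CPM and Srebf1 at 45.5 to 110 CPM, above the limit in all 4 libraries, as were 79.7% of all values over genes and libraries. Skeletal muscle-like nuclei of iBAT at 2 months, 430 in number, had Mlxipl at 409 CPM (376 to 444) and Acss2 at 167. These were 0.41 and 0.52 of the adipocyte-like levels. In kidney tubule-like nuclei that ratio was 0.60 to 0.68 for Mlxipl, 0.62 to 1.35 for Acss2 and 0.72 to 0.87 for Me1. In epithelial-like nuclei it was 0.18 to 0.71 for Me1 and 0.37 to 0.65 for Srebf1. These classes rest on 1 to 4 libraries.

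**Figure D4:**
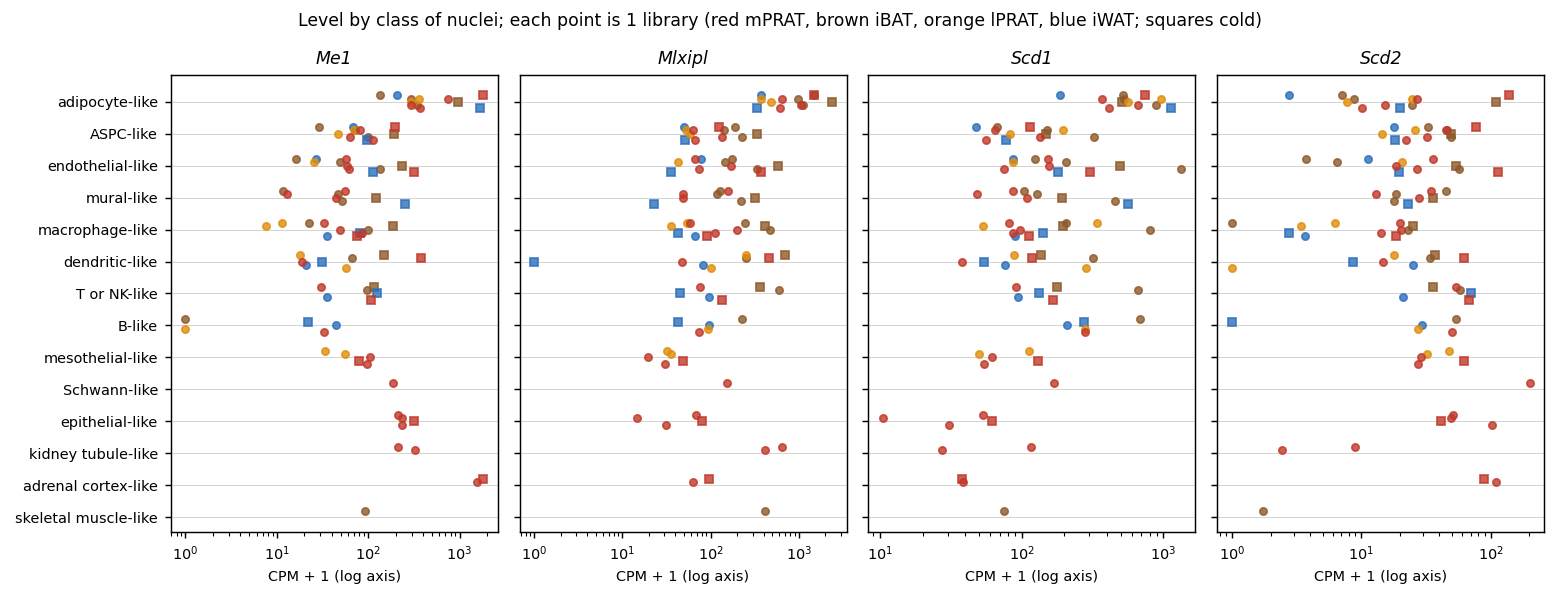
CPM + 1 (log axis) of Me1, Mlxipl, Scd1 and Scd2 by class of nuclei; each point is 1 library with at least 50 nuclei of the class, in red for mPRAT, brown for iBAT, orange for lPRAT and blue for iWAT, with squares for cold. Me1 in adrenal cortex-like nuclei lies with the highest adipocyte-like points, and Scd2 in many other classes lies at or above the adipocyte-like points at room temperature.

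In the cold the other classes differed among themselves. In endothelial-like nuclei of mPRAT Acly went from 61.3 to 230 CPM, a log2 ratio of 1.89, and Me1 from 55.7 to 313 CPM (2.47), where adipocyte-like nuclei gave 1.70 and 1.26 and the 8 adipocyte markers in endothelial-like nuclei had a median of 0.15. The median log2 ratio over the 10 members in mPRAT was 2.16 in dendritic-like, 1.83 in endothelial-like, 0.93 in ASPC-like, 0.78 in T or NK-like, 0.72 in mesothelial-like, 0.68 in epithelial-like, 0.57 in macrophage-like and 0.25 in adrenal cortex-like nuclei, with marker medians of -1.53 to 1.18. In iWAT it was 0.82 in endothelial-like, 0.68 in macrophage-like, 0.44 in T or NK-like, 0.38 in ASPC-like, 0.31 in B-like and -0.62 in dendritic-like nuclei, with marker medians of -2.83 to -1.09. In iBAT it was 0.50 in mural-like, 0.32 in dendritic-like, 0.23 in endothelial-like, 0.13 in ASPC-like, -0.32 in macrophage-like and -0.75 in T or NK-like nuclei, with marker medians of -1.82 to 0.51. Over all genes with at least 20 counts the median lay between -0.17 and 0.15 in each of these classes, and between 6 and 10 members reached that count. In macrophage-like nuclei of mPRAT Acaca was at 0.98 (0.66 to 1.30), Acacb at 1.05 and Me1 at 1.19, while Acly at 0.15 and Fasn at -0.15 had intervals that included 0, with a marker median of -0.31. The dendritic-like values of mPRAT come from 101 cold and 202 room-temperature nuclei. A marker gate applied to every nucleus of these libraries, whatever its cluster, gave 19 and 76. The leading genes of the dendritic-like cluster include Lyz2 and Fn1. Me1 was the highest there, at 4.33 (3.55 to 5.38) from 81 and 13 UMIs, with a marker median of -0.21. In ASPC-like nuclei of mPRAT Acss2 went from 45.6 to 143 CPM (1.63) and Fasn from 43.3 to 99.3 (1.18), with a marker median of -0.37. In ASPC-like nuclei of iWAT Acacb went from 79.9 to 208 CPM (1.37) and Fasn from 7.63 to 21.0 (1.35), with a marker median of -1.09. In iBAT Scd1 went in endothelial-like nuclei from 1321 to 495 CPM, a log2 ratio of -1.41, in ASPC-like from 325 to 149 (-1.12) and in macrophage-like from 809 to 195 (-2.05), where the markers gave medians of -0.28, -0.20 and -1.11. Several of these levels in mPRAT were not above the limit for leaked RNA at either temperature. They were Acly and Me1 in endothelial-like, Acaca, Acacb and Me1 in macrophage-like, and Acss2 and Fasn in ASPC-like nuclei. Me1 in dendritic-like nuclei of cold mPRAT was above it, as was Scd1 in endothelial-like and macrophage-like nuclei of both iBAT libraries. The part of leaked adipocyte RNA, which carries each member's own change, was not tested in these values.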

How the data were processed

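The deposited count matrices hold whole UMI counts per gene and barcode, 1 library a group, made with Cell Ranger 7.0.0 on mm10, per the submitters' processing notes. Per the labels' protocols, nuclei were isolated, stained and sorted before 10x library preparation. Barcodes with at least 500 UMIs, 300 genes and at most 10% mitochondrial UMIs were kept, and the highest doublet scores were removed at 0.8% per 1000 nuclei. The libraries were clustered together with scanpy 1.11.5 (2000 variable genes, 30 principal components, Leiden resolution 1), with the members and the other pathway genes left out. Of 29 clusters 26 were named from at least 3 markers, and 3 with 1541 nuclei stayed unnamed. Counts were summed by class and library. A gene entered a comparison with 20 counts or more summed over its libraries, with no p-value, since each group has 1 library. Cold was tested over 6 libraries with depot as a block (edgeR quasi-likelihood, DESeq2 as the alternative, Benjamini-Hochberg adjustment over all genes), chosen after seeing the data. Poisson, binomial and Clopper-Pearson limits of 95% cover counting error only. Scaling alternatives used edgeR 4.0.16 and DESeq2 1.42.0, and the code was tested on simulated data. The genes named were the 10 members, 8 paralogs or partners, up to 3 extremes at each end of 40 pathway genes, and the 8 genes most like the members. The members and lists were chosen with earlier results of these data known. The odds ratio and commonest-cluster measures of pairing and the exclusion of 2 libraries were chosen after seeing the data. Library depth ran from 5461133 to 87035783 UMIs.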

Additional observations from a re-analysis of the deposited data

Results flagged for a closer look

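These differences between depots were not tested, since each depot has 1 library at each age and temperature; each stands out because the depots moved in opposite directions. In the cold, the log2 ratio of Acaca was 0.18 in mPRAT, -0.20 in iBAT and 1.58 in iWAT. Mlxipl gave 1.19 in mPRAT, 1.09 in iBAT and -0.13 in iWAT, this value turning to above 0 with either other scaling. Scd1 gave 0.99 in mPRAT, -0.79 in iBAT and 2.58 in iWAT.

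From 2 to 6 months 8 members had opposite signs in at least 1 pair of depots. In mPRAT, iBAT and lPRAT in that order, Acly gave 0.92, 1.68 and -2.09, Fasn 0.73, 1.74 and -2.06, and Scd2 1.43, 1.49 and -1.65. Acaca gave 0.49, 1.81 and -0.80, Acss2 0.78, 0.62 and -0.80, and Srebf1 0.69, 0.50 and -0.61. Me1 gave 1.01, 0.20 and -0.29, with iBAT at -0.04 among nuclei of at least 1000 genes. Scd1 gave -0.15, 0.75 and -0.78. From 1 to 2 months Acss2 gave -0.82 in mPRAT and 0.31 in iBAT.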

How the results depend on the processing

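Of 53 calls of a member past 2-fold, 461 of 477 recomputed values kept the call and 16 did not, and no called value turned its sign. Over all 1080 recomputed log2 ratios, 374 moved by more than their counting interval. From 2 to 6 months in mPRAT the 2 members past 2-fold became 1 among nuclei of at least 1000 genes, 0 with 10 CPM added and 1 with a marker gate on each nucleus, and with either other scaling 1 was higher and 1 lower. From 1 to 2 months in iBAT 2 became 1 at 1000 genes, as Me1 no longer passed. In lPRAT against iWAT 3 became 1 with 10 CPM added. The other comparisons within a depot or between depots stayed within 1.5 times their count. In the test of cold across depots 0 members passed by edgeR and 6 by DESeq2, and leaving out 1 depot gave 0 to 5 members.

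Pair counts changed more. Thinned to 500 UMIs, mPRAT at 1 month had 15 pairs, cold mPRAT 17 and iBAT at 6 months 1. Thinned to 2000, mPRAT at 1 month had 3, cold mPRAT 2 and lPRAT at 6 months 5, and with the marker gate lPRAT at 6 months had 5. In the commonest cluster alone mPRAT at 2 months had 3, iBAT at 1 and 2 months 1 each, lPRAT at 2 months 3 and at 6 months 6, and iWAT 1. By an odds ratio of 1.5 mPRAT had 18 at 1 month, 29 at 6 months and 32 in the cold, iBAT 10, 8 and 14 at 1 month, 6 months and in the cold, lPRAT 9 and 1, and iWAT 1 and 22 in the cold.

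Class counts rest on the limit. Against the median marker ratio in place of the highest, the counts were 94 in ASPC-like, 63 in endothelial-like, 35 in mural-like, 47 in macrophage-like, 36 in dendritic-like, 22 in T or NK-like, 31 in mesothelial-like, 5 in Schwann-like, 15 in kidney tubule-like, 19 in adrenal cortex-like and 8 in skeletal muscle-like nuclei. Without the mitochondrial limit epithelial-like nuclei gave 33. With the marker gate mural-like gave 21, and dendritic-like 2 of 10 in place of 18 of 80, as 1 library kept 50 nuclei. Without cold mPRAT and 2-month lPRAT dendritic-like gave 11 and adrenal cortex-like 4, with fewer libraries. The cause of the other changes was not tested. The test of cold across depots paired the cold and room-temperature libraries of each depot. By replicate number no paired analysis was possible because each group has 1 library.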
